A study of Mus musculus with 3 samples.

Results

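The Akr1b and Akr1c reductases described here are 7 mouse genes, Akr1b3, Akr1b7, Akr1b8, Akr1c12, Akr1c13, Akr1c14 and Akr1c18, among 18350 named genes on a one-colour Agilent whole mouse genome array. They were chosen by their family, and selected on the levels and ratios they showed on these same 3 arrays. Every non-control probe whose transcript accession belongs to one of them was taken, which gave 8 probes for 6 of the 7 genes. Akr1c13 had no named probe and so has no value of its own. Akr1b3 and Akr1c12 had 2 probes each, and the other measured members had 1.

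The study compared 3 groups of C2C12 cells, a myoblast line of mouse muscle whose cells fuse to myotubes in low serum, with 1 array for each group. The first group was neurogenic cellulates, which had been treated like the BIO cellulates and then kept in neurogenic conditions on laminin-coated dishes. These conditions were 250 nM reversine for 48 h, and DMEM/F12 medium with N2, to which all-trans retinoic acid was added at 1.5 µM, with 7 days given for this culture. The second group was BIO cellulates, mononuclear pieces made from myotubes with the microtubule-binding compound myoseverin and then given BIO, an inhibitor of the kinase GSK3, for 2 days. The third group was untreated myoblasts. Both cellulate groups came from myotubes grown for 8 days (2% horse serum), which received the nucleoside analogue AraC at 10 µM between days 2 and 4, and BIO was added 24 h after myoseverin. The sources give the BIO dose both as 2.5 µM, in the sample labels, and as 10 µM, and the 48 h myoseverin dose both as 20 µM and as 30 µM. Without an array of plain myotubes or of cellulates that had no BIO, the effects of BIO, myoseverin, AraC and differentiation cannot be told apart. The number of cultures behind each array is not given in the sources used here.

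Aldo-keto reductases are soluble enzymes that use NADPH to reduce aldehydes and ketones to alcohols. The Akr1b branch holds aldose reductase and its relatives, which act on sugars and on aldehydes formed from lipids. The Akr1c branch acts mainly on steroid and prostaglandin carbonyl groups, and both branches are known in mice from liver, gut, adrenal and reproductive tissue. In the mouse gene order of RefSeq the Akr1b genes lie side by side on chromosome 6, as Akr1b3, Akr1b8, Akr1b10 and Akr1b7. The Akr1c genes lie side by side on chromosome 13, where Akr1c14, Akr1c18, Akr1c13, Akr1c19 and Akr1c12 follow one another.

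Promoter windows of 300 bases, from 250 bases before to 50 bases after the annotated start, were available from RefSeq (build GRCm38.p6) for 6 of the 7 members. The Akr1c18 window is shown because Akr1c18 had the largest ratios between arrays of any member. It lies at chr13:4150597-4150896 on the minus strand, and capitals mark its matches to the E-box CANNTG, a sequence bound by basic helix-loop-helix proteins.
Akr1c18 promoter: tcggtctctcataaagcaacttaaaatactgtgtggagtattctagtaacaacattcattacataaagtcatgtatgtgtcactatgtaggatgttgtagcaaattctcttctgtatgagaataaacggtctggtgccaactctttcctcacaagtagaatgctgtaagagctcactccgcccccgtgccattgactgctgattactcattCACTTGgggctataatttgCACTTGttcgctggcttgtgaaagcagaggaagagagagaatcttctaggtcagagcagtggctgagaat
Both matches read CACTTG and start 39 and 20 bases before the annotated start. An E-box was present in 5 of the 6 member windows, against 72.3% of 32851 mouse promoter windows of the same length. The antioxidant response element core TGACNNNGC, searched on both strands like the other motifs, was in 0 of the 6 windows, against 12.4% of all windows. The TATA box TATAAA was in 1 of the 6, on the minus strand of the Akr1b8 window, against 13.6% of all windows. These matches describe the letters of the windows and were not tested for binding.

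Akr1c12 and Akr1c13 are shown together because they are close copies of each other and only Akr1c12 has named probes. Akr1c12 lies at chr13:4279350-4279649 on the minus strand and Akr1c13 at chr13:4190937-4191236 on the plus strand, with the bases that differ between them in capitals.
Akr1c12 promoter: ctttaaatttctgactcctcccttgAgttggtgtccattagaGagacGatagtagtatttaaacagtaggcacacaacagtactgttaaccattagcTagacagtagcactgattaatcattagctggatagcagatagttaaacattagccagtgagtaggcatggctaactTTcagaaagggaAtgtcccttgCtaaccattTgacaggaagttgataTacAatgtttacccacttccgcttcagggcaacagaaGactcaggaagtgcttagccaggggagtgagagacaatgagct
Akr1c13 promoter: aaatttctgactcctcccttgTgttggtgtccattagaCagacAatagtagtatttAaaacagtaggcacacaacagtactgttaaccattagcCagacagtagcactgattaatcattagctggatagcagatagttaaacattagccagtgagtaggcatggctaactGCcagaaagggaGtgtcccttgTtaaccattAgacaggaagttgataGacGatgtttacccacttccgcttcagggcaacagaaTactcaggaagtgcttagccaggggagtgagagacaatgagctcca
Of 297 aligned positions, 284 were identical (95.6%), 12 were mismatches and 1 was a gap. For comparison, Akr1c14 and Akr1c18, which are neighbours in the cluster, matched at 176 of 310 aligned positions (56.8%). The probe sequences were not used here, so the values given for Akr1c12 may include Akr1c13 transcripts.

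All levels below are log2 values of the scanner signal relative to the 75th percentile of the same array, and a ratio is the difference between 2 such levels. The 75th percentile was 156, 115 and 181 intensity units on the neurogenic, BIO and myoblast arrays, and 45.7%, 46.9% and 50.7% of 43379 non-control spots were called well above background by the scanner software. No spot was saturated. Each group has 1 array, so no difference has a replicate check and no p-value is given. The spread of repeated spots of the same probe within an array gives the only measured error. A 95% limit for a difference between 2 arrays, computed from the pooled standard deviations of repeated spots as if normally distributed, was 1.45-fold for BIO cellulates over myoblasts, 1.35-fold for neurogenic over BIO cellulates and 1.40-fold for neurogenic cellulates over myoblasts. This covers spot error only, not the culture or the labelling. The limits pool dim and bright probes. On the log2 scale, probes of 100 units or more had standard deviations of 0.084, 0.127 and 0.149 (neurogenic, BIO, myoblast). Probes under 100 units had 0.198, 0.228 and 0.266. The pooled limits are therefore too wide for bright probes and too narrow for dim ones. Where only 1 of the 2 arrays had a probe well above background, the fold is a lower bound against whichever was higher on the dim array, the probe's own reading or the lowest signal there called well above background. Where the brighter reading did not exceed that reference, the difference was set to 0. Bounds and these 0 values enter the counts of genes compared and the medians.

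Markers were read on the same arrays to check the labels. Myod1, the myogenic master regulator, had levels of 0.58, 0.98 and 0.62 on the neurogenic, BIO and myoblast arrays, and Pax7 was also well above background on all 3, whereas Myf5 was dim on each. Of the other myoblast markers, Des was 18.5-fold higher in neurogenic and 12.2-fold higher in BIO cellulates than in myoblasts, and Cdh15 was 3.25-fold and 2.15-fold lower. The summed signal of the 5 was 52.8, 71.3 and 137 times the 75th percentile. Of 5 myotube markers (Myog, Acta1, Ckm, Myh3, Tnnt3), 5 passed 2-fold upward in neurogenic cellulates over myoblasts and 4 did in BIO cellulates over myoblasts. Their summed signal was 1771, 2105 and 84.7 times the 75th percentile on the neurogenic, BIO and myoblast arrays. All 3 markers of dividing cells were at least 2-fold lower in both cellulate groups than in myoblasts, with summed signals of 7.68, 7.30 and 60.0. Of 4 neuron markers compared in neurogenic cellulates over myoblasts, Nefm was higher by a log2 ratio of at least 2.20, Map2 was 2.31-fold lower, and Tubb3 and Rbfox3 had log2 ratios of -0.97 and 0.00. Dcx was dim on both of those arrays, and the summed signal of the 5 neuron markers was 5.787, 6.057 and 10.705 on the neurogenic, BIO and myoblast arrays. On every array the hepatocyte markers Alb, Ttr and Apoa1 were dim. Of 4 fibroblast markers, Pdgfra was dim on every array, and the summed signal was 1378, 1678 and 2139. In neurogenic cellulates over myoblasts Dcn, Col1a2 and Col1a1 had log2 ratios of 2.72, -0.45 and -1.70. Of 4 adipocyte markers, Adipoq and Fabp4 were dim on every array, whereas Plin1 and Lep were well above background on all 3, and the summed signal was 0.880, 0.910 and 0.976. Of 4 markers of steroid-making cells, Star and Cyp11a1 were dim on the neurogenic array and Cyp11a1 on the BIO array, and the list's summed signal was 13.1, 13.2 and 19.5. All 4 were well above background on the myoblast array. Cyp17a1 and Hsd3b1 were so on every array, and Cyp17a1 had levels of 3.66, 3.67 and 4.25.

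Of the 7 members, 3 (Akr1b3, Akr1c12 and Akr1c18) were well above background on all 3 arrays. Akr1b8 was well above background in neurogenic cellulates alone, and Akr1b7 and Akr1c14 on no array. In BIO cellulates against myoblasts 2 of the 3 members compared were at least 2-fold higher and 0 were lower, where 11.2% of 12828 genes compared were higher and 6.01% lower. In neurogenic against BIO cellulates 0 of 4 were higher and 1 was lower, where 4.17% of 12256 genes were higher and 1.8% lower. In neurogenic cellulates against myoblasts 3 of 4 were higher and 0 were lower, where 12.1% of 12855 genes were higher and 10% lower. The members were picked knowing these ratios, so the counts describe them only. The median member ratio was 2.47, 0.00090 and 2.40 in these 3 comparisons, against 0.00, -0.17 and -0.06 over all genes compared. These medians include bounds, and the 2.40 averages the Akr1b8 bound of 2.05 and the Akr1c12 ratio of 2.75. With only genes well above background on both arrays, the member medians were 2.47, -0.28 and 2.75. Those over all genes were then 0.01, -0.18 and -0.15. The first 2 comparisons share the BIO array, the last 2 share the neurogenic array, and the first and last share the myoblast array.

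**Figure D1:**
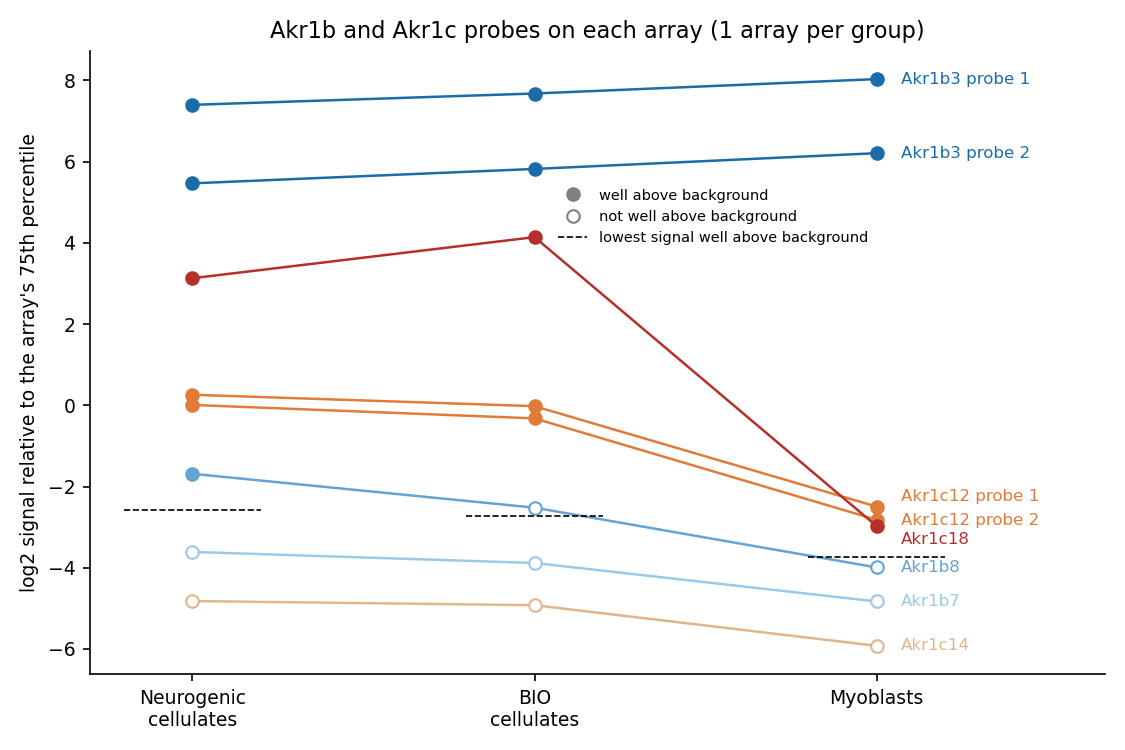
Level of each probe of the measured members (log2 signal relative to the array's 75th percentile, vertical axis) on the neurogenic, BIO and myoblast arrays, 1 array each, so there are no error bars. Filled points were well above background, open points were not, and dashed lines give the lowest signal well above background: Akr1c18 and both Akr1c12 probes sit lowest on the myoblast array, and Akr1b3 sits highest there.

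Akr1c18 encodes the mouse enzyme that inactivates progesterone, best known from the ovary at the end of luteal function. Its signal was 1361 intensity units in neurogenic cellulates, 2026 in BIO cellulates and 23.0 in myoblasts, which are levels of 3.13, 4.14 and -2.98. The myoblast signal was close to the lowest one called well above background on that array, 13.6 units. Both cellulate arrays thus lay far above the myoblast array. The BIO cellulate level was 139-fold higher than the myoblast level (log2 ratio 7.12, standard error 0.27 from the scanner software's own signal errors). The neurogenic level was 68.8-fold higher than the myoblast level (log2 ratio 6.10). Among genes well above background on both arrays, Akr1c18 ranked 3 of 11181 from the highest ratio for BIO cellulates over myoblasts and 9 of 10885 for neurogenic cellulates over myoblasts. With normexp correction, which models signal and background together and adds an offset of 50, and which started from the median pixel intensities in place of the processed signal, the log2 ratios were 5.21 and 4.34. In bulk cultures more cells that make a transcript and more RNA per cell cannot be told apart. The myotube markers given above were higher on the same 2 arrays, and their part in the Akr1c18 ratios was not tested.

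Between the cellulate arrays, Akr1c18 was 2.02-fold lower in neurogenic than in BIO cellulates (log2 ratio -1.01, standard error 0.20). That is beyond the 1.35-fold spot error, and it ranked 148 of 10875 from the lowest ratio. It lies on the edge of the 2-fold count, with log2 ratios from -1.02 to -0.66 over 9 other ways of processing. In the same comparison the 5 myotube markers had log2 ratios of 0.81 for Myog, 0.22 for Ckm, -0.07 for Acta1, -0.61 for Tnnt3 and -0.99 for Myh3.

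Akr1c12 encodes a close relative of Akr1c18 and Akr1c13 in the mouse cluster. Its first probe read 186 intensity units in neurogenic cellulates, 113 in BIO cellulates and 32.1 in myoblasts, and its second probe read 157, 91.9 and 25.6 in the same order of arrays. Both probes were well above background on every array, lowest in myoblasts and highest in neurogenic cellulates. In BIO cellulates over myoblasts the probes gave 5.55-fold and 5.65-fold (log2 ratios 2.47 and 2.50, standard errors 0.26 and 0.30). In neurogenic cellulates over myoblasts they gave 6.75-fold and 7.10-fold (log2 ratios 2.75 and 2.83). The probes therefore differed from each other by less than the spot error. In neurogenic over BIO cellulates they gave 1.22-fold and 1.26-fold, within the 1.35-fold spot error pooled over dim and bright probes. Akr1c12 ranked 78 of 11181 and 124 of 10885 from the highest ratio in the comparisons with myoblasts. Normexp correction gave log2 ratios of 1.32 and 1.54 there.

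Akr1c14, the mouse 3-alpha-hydroxysteroid dehydrogenase that acts on androgens and other steroids, was near the detection floor. Its probe read 5.51, 3.79 and 2.98 intensity units on the neurogenic, BIO and myoblast arrays, each with a software error of 99.6% of the signal. No array had it well above background, so no ratio is given. This gene lies next to Akr1c18 in the cluster, and the arrays allow no statement on whether it differed.

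**Figure D2:**
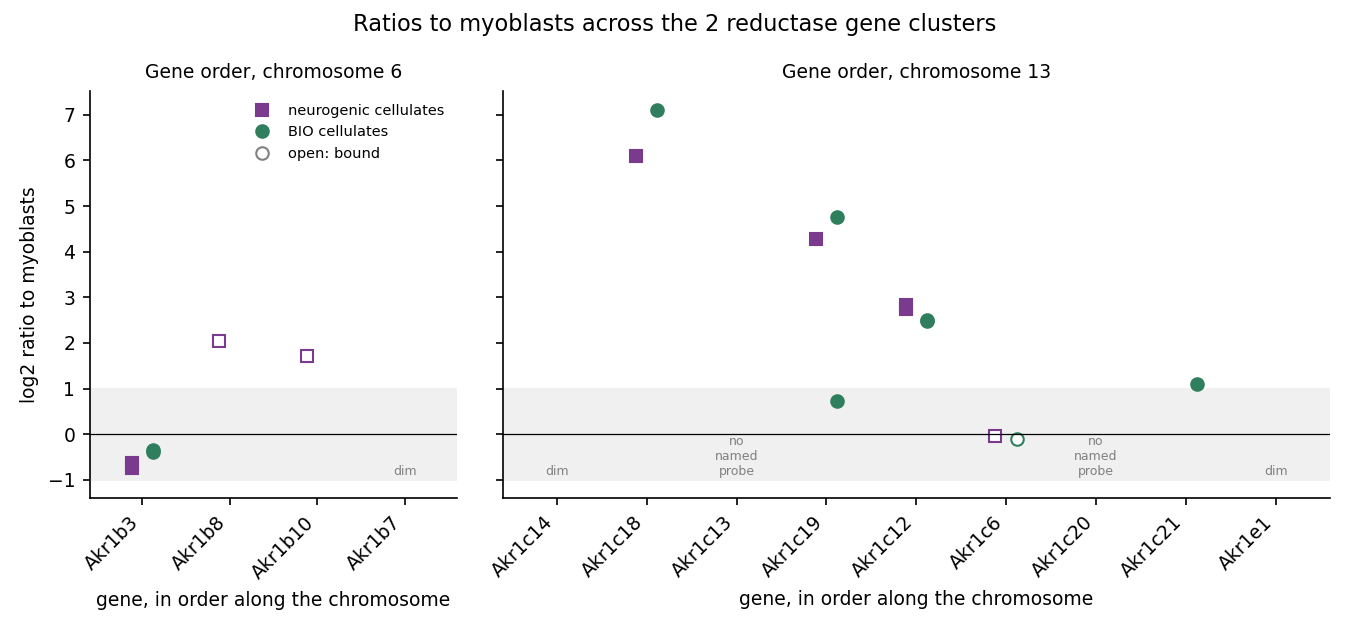
Log2 ratio to myoblasts (vertical axis) of each probe in neurogenic cellulates (squares) and BIO cellulates (circles), for the genes of the 2 clusters in their order along chromosomes 6 and 13 (horizontal axis), with open symbols for bounds and grey shading for ratios under 2-fold. Akr1c18, Akr1c12 and 1 of the 2 Akr1c19 probes stand above the shading in both groups, and both Akr1b3 probes lie below 0.

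Akr1c19, which lies between Akr1c13 and Akr1c12 and is not one of the 7 genes, was read because of its place in the cluster. Its first probe read 943 intensity units in neurogenic cellulates, 972 in BIO cellulates and 56.8 in myoblasts. The BIO cellulate level was 26.9-fold and the neurogenic level 19.3-fold the myoblast level. Its second probe read 25.0, 26.3 and 25.1 units, was dim on the neurogenic array and gave a log2 ratio of 0.72 for BIO cellulates over myoblasts. The 2 probes of Akr1c19 thus disagreed in size, unlike those of Akr1c12. Akr1c21, farther along the cluster, had a log2 ratio of 1.10 in BIO cellulates over myoblasts and was not well above background in neurogenic cellulates. Over 9 other ways of processing that ratio ranged from 0.38 to 1.32. Akr1c6 read 17.7 units in neurogenic cellulates, 18.6 in BIO cellulates and 31.3 in myoblasts, and only the myoblast reading was well above background.

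Akr1b3 is mouse aldose reductase, which turns glucose into sorbitol in the first step of the polyol pathway. Its first probe read 26234 intensity units in neurogenic cellulates, 23498 in BIO cellulates and 47332 in myoblasts. Its second probe read 6872, 6486 and 13367 in the same order of arrays. After scaling, the first probe had levels of 7.40, 7.68 and 8.03, and the second 5.46, 5.82 and 6.21. Akr1b3 was bright on all 3 arrays, with the highest level in myoblasts by both probes.

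The differences in Akr1b3 were small. BIO cellulates were 1.28-fold and 1.31-fold lower than myoblasts by the 2 probes, within the 1.45-fold spot error. Neurogenic cellulates were 1.21-fold and 1.28-fold lower than BIO cellulates, within the 1.35-fold spot error. Both limits pool dim and bright probes and are wide for a gene as bright as Akr1b3, so these differences may exceed its own spot error. Neurogenic cellulates were 1.55-fold and 1.67-fold lower than myoblasts, beyond the 1.40-fold spot error and under 2-fold. Scaling changed these values: by the first probe, scaling to spike-in controls gave a log2 ratio of -0.06 for neurogenic cellulates over myoblasts and scaling to the array median gave -1.36. The neurogenic over BIO ratio turned positive under quantile normalization (0.21) and spike-in scaling (0.08).

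Akr1b8, known in mouse fibroblasts as a protein induced by fibroblast growth factor, reduces lipid aldehydes. Its probe read 48.4 intensity units in neurogenic cellulates, 20.0 in BIO cellulates and 11.4 in myoblasts, and was well above background on the neurogenic array only. The neurogenic level was at least 4.13-fold higher than the myoblast level and at least 1.78-fold higher than the BIO cellulate level. Under normexp correction these bounds were 0.85 and 0.14 on the log2 scale. Akr1b8 was 1 of 703 probes well above background on the neurogenic array alone, which is 3.64% of the 19320 that were dim on the BIO and myoblast arrays. Akr1b10, its neighbour in the cluster and not one of the 7 genes, was also well above background there alone, at 38.4 units against 5.11 in BIO cellulates and 3.63 in myoblasts.

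Akr1b7, known in mice from the vas deferens and the adrenal cortex as a reductase of lipid aldehydes, read 12.7, 7.79 and 6.36 intensity units on the neurogenic, BIO and myoblast arrays. It was not well above background on any of them, with software errors from 57.2% to 65.0% of the signal. As a caution for Akr1b7 and Akr1c14, dim genes shift together after scaling: the 5450 genes dim on both the BIO and the myoblast array had a median unfiltered log2 ratio of 1.01. The unfiltered log2 ratios of Akr1b7 and Akr1c14 there were 0.95 and 1.00.

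**Figure D3:**
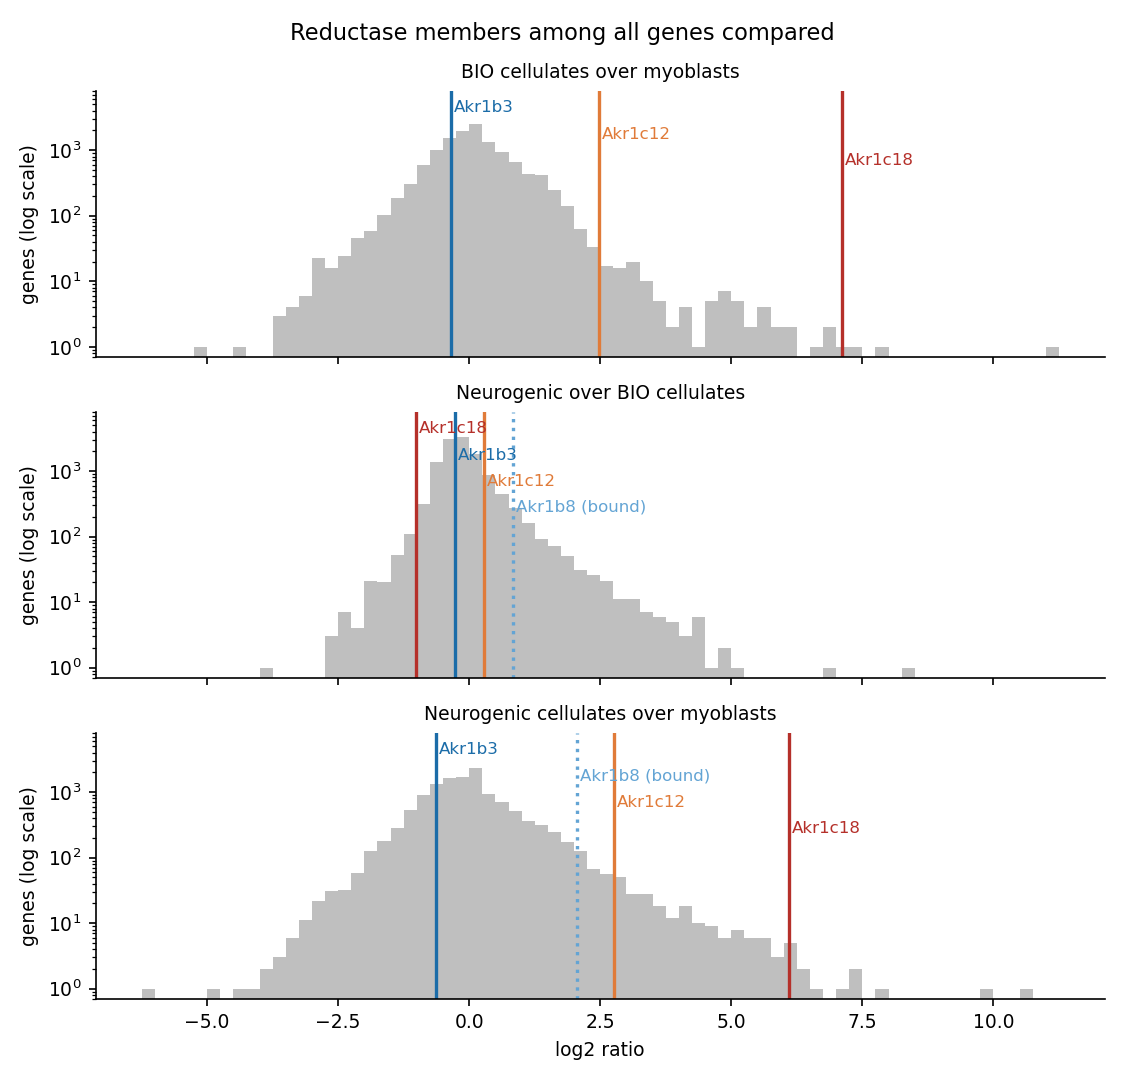
Number of genes (vertical axis, log scale) by log2 ratio (horizontal axis) in each of the 3 comparisons, with the members marked by vertical lines and lower bounds dotted. Akr1c18 lies in the far right tail in the comparisons with myoblasts, at 7.12 and 6.10, and at -1.01 between the cellulate groups.

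The genes whose 3 levels most resembled those of each member were sought among 10663 genes well above background on all arrays, by Euclidean distance between levels centred on their own mean over the 3 arrays. For Akr1c18 the nearest was Tnnt3, fast skeletal troponin T (distance 0.28), then Mustn1, a small nuclear protein of muscle and bone (0.42), and Cox6a2, the muscle form of a cytochrome oxidase subunit (0.79). Tnnt3 had log2 ratios of 6.89, -0.61 and 6.28 in BIO over myoblasts, neurogenic over BIO and neurogenic over myoblasts. For Akr1c12 the nearest were Aox1, an aldehyde oxidase (0.12), Eda2r, a receptor of the tumour necrosis factor receptor family (0.12), and Abtb2 (0.16). Aox1 had log2 ratios of 2.38, 0.45 and 2.83 in the same comparisons. With 3 arrays these distances describe likeness over 3 points and nothing more.

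Other aldo-keto reductases outside the 7 genes gave 2 of 5 compared genes at least 2-fold higher and 0 lower in BIO cellulates over myoblasts, Akr1c19 and Akr1c21. Their median log2 ratio was 0.08, and it was -0.63 when arrays were scaled to their median. Between the cellulate groups 0 of 5 passed 2-fold in either direction (median -0.48), and in neurogenic cellulates over myoblasts 2 of 6 were higher (median -0.02). In BIO cellulates over myoblasts 1 of 5 was higher with median scaling, quantile normalization or normexp correction. Of all genes, 2.89%, 6.4% and 2.36% were higher under these. Median scaling also gave 1 lower, where 28.9% of all genes were lower. For this and later lists at the 75th percentile scaling, 11.2% of all genes compared were higher and 6.01% lower in BIO cellulates over myoblasts. These shares were 4.17% and 1.8% in neurogenic over BIO cellulates, and 12.1% and 10% in neurogenic cellulates over myoblasts. Akr1a1, the widely expressed aldehyde reductase, had log2 ratios of -0.32, -0.51 and -0.83, and Akr7a5, a reductase of succinic semialdehyde, had 0.08, -0.48 and -0.40. These 2 genes, like Akr1b3, were bright on all 3 arrays and under 2-fold different at the 75th percentile scaling.

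The genes listed beside aldose reductase act in sorbitol handling and osmotic stress. In BIO cellulates over myoblasts 0 of 8 were at least 2-fold higher and 1 was lower (median 0.49), in neurogenic over BIO cellulates 1 was higher and 0 were lower (median -0.05), and in neurogenic cellulates over myoblasts 1 was higher and 1 was lower (median 0.59). That last count depended on scaling, with 5 of 8 higher and 0 lower with spike-in scaling, 4 higher and 0 lower with the 75th percentile over probes well above background, and 0 higher and 2 lower with median scaling. Of all genes, 23.7%, 17.6% and 5.06% were higher and 3.31%, 5.06% and 38.9% lower under these settings, in the same order. Aqp1, a water channel, had levels of 3.39, 0.71 and 2.58 on the neurogenic, BIO and myoblast arrays. It was 3.65-fold lower in BIO cellulates than in myoblasts and 6.40-fold higher in neurogenic than in BIO cellulates. Nfat5, the transcription factor of the osmotic response, was 2.68-fold higher in neurogenic cellulates than in myoblasts, and Slc6a6, the taurine transporter, was 2.23-fold lower.

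Of genes for steroid conversion and response, 4 of 14 were at least 2-fold higher and 1 was lower in BIO cellulates over myoblasts (median -0.03). Neurogenic over BIO cellulates had 2 of 12 higher and 0 lower (median 0.02), and in neurogenic cellulates over myoblasts 4 of 14 were higher and 1 was lower (median 0.00). That 0.00 is the value set for Hsd3b7 and Cyp11a1, which were well above background on the myoblast array alone. Hsd11b1, which regenerates active glucocorticoid, had levels of 1.85, 0.66 and -0.91 on the neurogenic, BIO and myoblast arrays. It was 6.77-fold higher in neurogenic cellulates and 2.96-fold higher in BIO cellulates than in myoblasts. Fkbp5, a co-chaperone of steroid receptors and a glucocorticoid target, was 2.99-fold lower in neurogenic and 2.28-fold lower in BIO cellulates than in myoblasts. Hsd17b4, an enzyme of peroxisomal fatty acid oxidation, was at least 8.09-fold higher in neurogenic cellulates than in myoblasts and at least 4.05-fold higher than in BIO cellulates. Its log2 values in these comparisons ranged from 1.23 to 3.84 and from 0.69 to 2.83 over the alternatives. Hsd17b2, which oxidises sex steroids, was higher in neurogenic and in BIO cellulates than in myoblasts, with log2 ratios of 1.27 and 1.05. Over 9 other ways of processing these ranged from 0.54 to 1.85 and from 0.33 to 1.28. Hsd3b6 was at least 4.44-fold higher in BIO cellulates than in myoblasts and dim on the neurogenic array. Its log2 value over myoblasts in BIO cellulates ranged from 1.00 to 3.33 over the alternatives. Hsd3b1, which is also one of the markers of steroid-making cells, was 2.17-fold higher in neurogenic and 2.11-fold higher in BIO cellulates than in myoblasts. Its levels of -2.25, -2.29 and -3.37 lay near the lowest called well above background, -2.57, -2.73 and -3.73 (neurogenic, BIO, myoblast). Genes dim on both arrays had median log2 ratios of 1.14 and 1.01 there. Over 9 other ways of processing its log2 ratios ranged from 0.39 to 1.70 and from 0.36 to 1.30. Pgr and Esr1, the receptors for progesterone and oestrogens, were dim on all 3 arrays.

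Of genes of prostaglandin synthesis and breakdown, 2 of 8 were at least 2-fold higher and 0 lower in BIO cellulates over myoblasts (median 0.37). In neurogenic over BIO cellulates 0 of 8 were higher and 1 was lower (median -0.39), and in neurogenic cellulates over myoblasts 1 of 7 was higher and 1 was lower (median -0.07). Ptgs1, a cyclooxygenase, had levels of 4.31, 3.41 and 1.56 on the neurogenic, BIO and myoblast arrays and was 6.76-fold higher in neurogenic cellulates and 3.61-fold higher in BIO cellulates than in myoblasts. Ptgis, prostacyclin synthase, had levels of -2.28, 1.67 and 2.60 and was 29.4-fold lower in neurogenic cellulates than in myoblasts. Ptges, a prostaglandin E synthase, was at least 3.63-fold higher in BIO cellulates than in myoblasts. It was well above background on the BIO array alone, and its log2 value there ranged from 0.83 to 2.08 over the alternatives. The prostaglandin F receptor Ptgfr was not well above background on any array.

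The list of targets of NRF2, the transcription factor of the oxidative stress response that acts on several reductases, had 4 of 26 genes at least 2-fold higher and 1 lower in BIO cellulates over myoblasts. Its median log2 ratio was 0.19, and it was -0.53 when arrays were scaled to their median. In neurogenic over BIO cellulates 1 of 24 was higher and 0 were lower (median -0.04), and in neurogenic cellulates over myoblasts 7 of 26 were higher and 0 were lower (median 0.10, and -0.55 with median scaling). Gsta1, a glutathione transferase, was 17.1-fold higher in neurogenic cellulates and 9.61-fold higher in BIO cellulates than in myoblasts. Hmox1, heme oxygenase, was 2.09-fold and 3.42-fold higher in the same groups, and Gsr, glutathione reductase, 2.03-fold and 3.16-fold. Osgin1, an oxidative stress response gene, was 2.88-fold and 2.10-fold higher in these groups by its brighter probe. The Gsr levels of -2.07 (neurogenic) and -3.09 (myoblast) lay near the lowest called well above background, -2.57 and -3.73. Its log2 ratios to myoblasts were 1.02 in neurogenic and 1.66 in BIO cellulates. Genes dim on both arrays had medians of 1.14 and 1.01 there. Over 9 other ways of processing the lowest Gsr values were 0.29 and 0.86. Its other probes were dim on every array. In neurogenic cellulates over myoblasts, Ephx1, an epoxide hydrolase, was 3.15-fold higher, Cat, catalase, 3.00-fold and Gsta4, a glutathione transferase, 2.43-fold. Ephx1 was also 2.57-fold higher in neurogenic than in BIO cellulates. Tkt, transketolase, was 2.10-fold lower in BIO cellulates than in myoblasts. Nqo1, a quinone reductase often used to read NRF2 activity, was not well above background on any array.

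Of other carbonyl-handling enzymes, 1 of 14 was at least 2-fold higher and 0 lower in BIO cellulates over myoblasts (median 0.13). For the 2 cellulate groups 1 of 14 was higher in neurogenic cellulates and 0 were lower (median 0.01), and in neurogenic cellulates over myoblasts 4 of 15 were higher and 1 was lower (median 0.33). Aldh7a1 was left out of both comparisons with myoblasts because its probes disagreed on background on the myoblast array. Its brighter probe gave log2 ratios of at least 1.94 in BIO and 1.82 in neurogenic cellulates over myoblasts. Its other probe gave 1.22 and 1.35. With the median over the probes of a gene, 2 of 15 and 5 of 16 were higher and 0 lower, where 11.2% and 12.5% of all genes were higher. Aldh1l1, a folate-dependent dehydrogenase, was 4.75-fold higher in neurogenic and 2.63-fold higher in BIO cellulates than in myoblasts. Adh5, which clears formaldehyde, was well above background in neurogenic cellulates alone, at least 21.1-fold higher than in myoblasts. Over the alternatives its log2 value in that comparison ranged from 2.27 to 6.52. Aldh2, Glo1 and Aldh9a1, which clear acetaldehyde, methylglyoxal and aminoaldehydes, had log2 ratios of 1.05, 1.28 and -1.06 in neurogenic cellulates over myoblasts, and that of Aldh9a1 ranged from -1.79 to 0.17 over the alternatives. A second Aldh9a1 probe, well above background in neurogenic cellulates alone, differed the other way, by a log2 ratio of at least 1.41. A second Glo1 probe, also well above background there alone, gave a log2 ratio of at least 3.75 in the same comparison. Scaling to the array median turned the list medians for BIO cellulates over myoblasts to -0.23 for the polyol list, -0.65 for steroids, -0.35 for prostaglandins and -0.40 for carbonyl-handling enzymes. For neurogenic cellulates over myoblasts it gave -0.14, -0.46, -0.80 and -0.22 for the same lists.

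**Figure D4:**
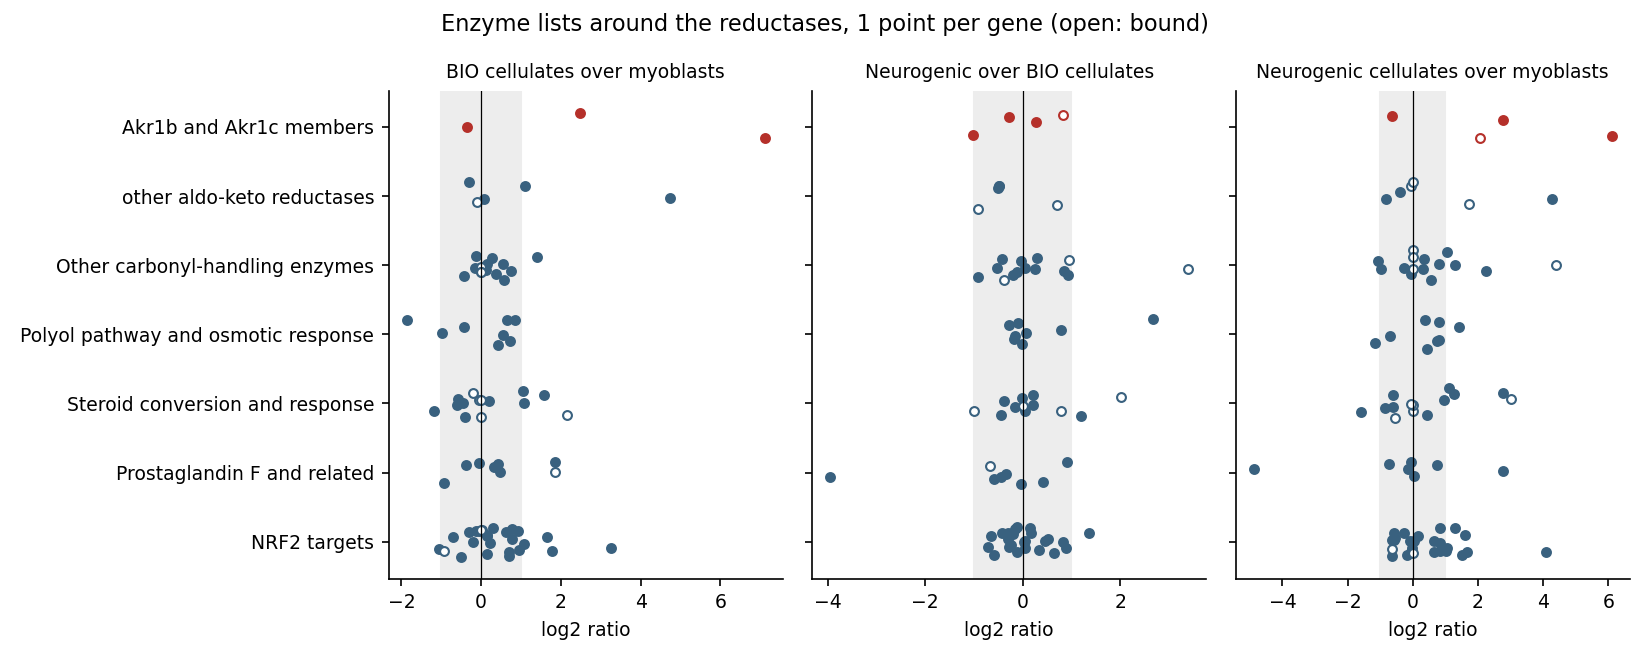
Log2 ratios of single genes (points, horizontal axis) of the 7 members and of each related list in the 3 comparisons. Open points are bounds or differences set to 0, and grey shading marks ratios under 2-fold. Genes dim on both arrays of a comparison are not drawn, nor are genes whose probes disagreed on background. The medians of the related lists lie between -0.48 and 0.59.

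The direction of the Akr1c18 and Akr1c12 differences against myoblasts was the same under 9 alternatives, some of which cannot change a measured ratio. Akr1c18 over these had log2 ratios from 5.21 to 7.34 in BIO cellulates and from 4.34 to 6.68 in neurogenic cellulates, and Akr1c12 from 1.32 to 2.70 and from 1.54 to 3.33. Scaling moved all genes together. Of genes at least 2-fold different from myoblasts, 65.2% were higher in BIO cellulates and 54.7% in neurogenic cellulates, but 9.11% and 11.5% when arrays were scaled to their median. With spike-in scaling these shares were 80.2% and 87.7%, and for neurogenic over BIO cellulates the share was 69.9%, and 91.8% with spike-in scaling.

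**Figure D5:**
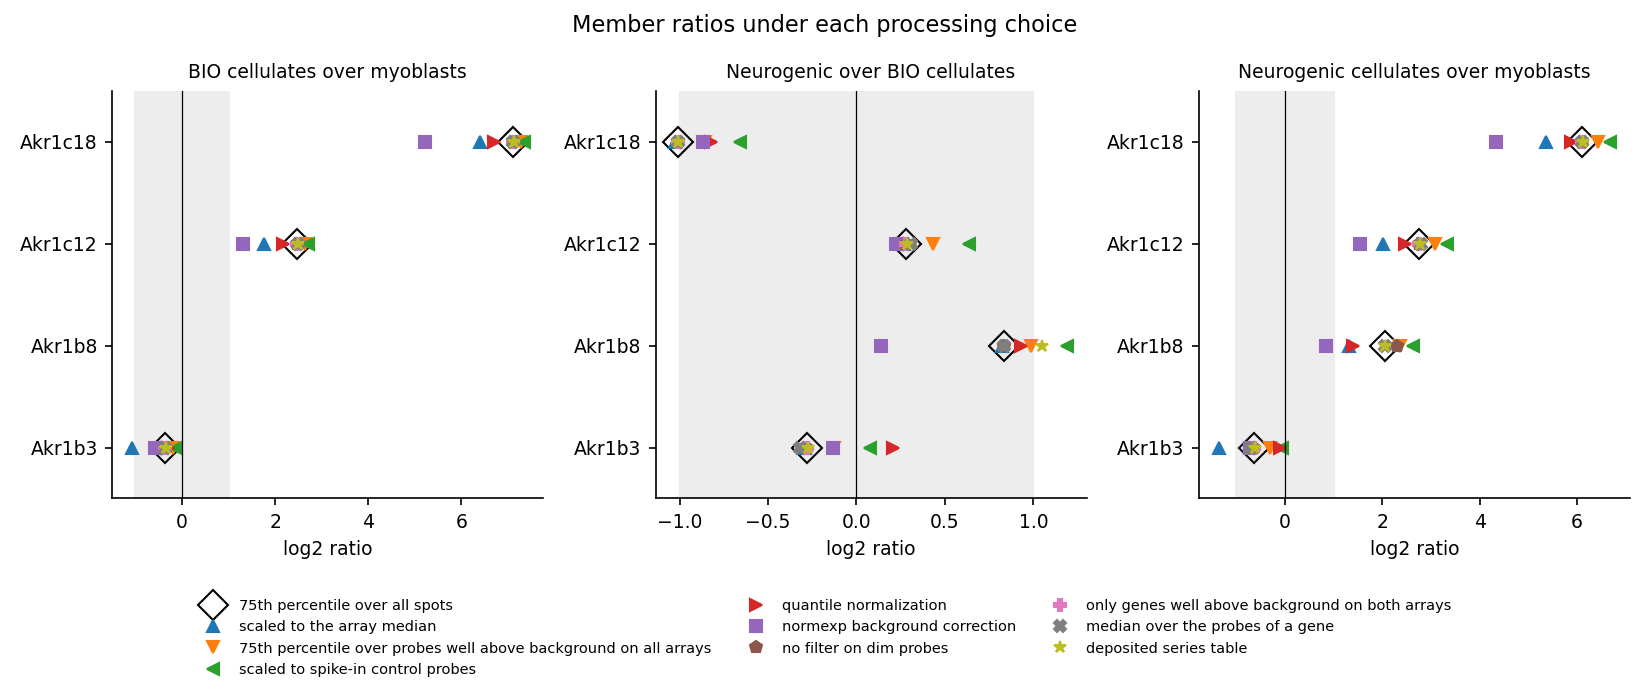
Log2 ratio (horizontal axis) of each measured member under the reported processing and under 9 alternatives, for the 3 comparisons, with a diamond for the reported value, 1 symbol for each alternative and grey shading for ratios under 2-fold. The Akr1c18 and Akr1c12 points stay right of 0 in both comparisons with myoblasts, from 5.21 to 7.34 and from 1.32 to 2.70 in BIO cellulates.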

How the data were processed

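Groups came from the sample labels. The deposited spot intensity, with background subtracted, was written by Agilent Feature Extraction 10.7.3.1, per the file headers, beside median pixel intensities and flags. The headers name build mm9. The authors' deposited series table holds log2 values equal to log2 intensity plus constants of 0.23, 0.67 and 0.00 (neurogenic, BIO, myoblast), with reason unstated, and served as an alternative.

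Spots of control probes and outlier spots were not used, and repeated spots of 1 probe were averaged. Of 41174 probes, 26918 were named through RefSeq accessions (GRCm38.p6). The probe with the highest mean level stood for a gene. A gene was left out of a comparison where that probe was dim on an array and another of its probes was not. This left out 72 genes in BIO cellulates over myoblasts, 47 in neurogenic over BIO cellulates and 83 in neurogenic cellulates over myoblasts. Python 3.11.15 with pandas 2.3.3 made the comparisons and R 4.3.3 with limma 3.58.1 the normexp correction, on median pixel intensities. The comparison step was tested on simulated data. The alternatives were 9 choices of scaling, background correction, dim-probe filter, probe summary and source table.

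Members and lists were chosen with earlier results of these data known. Text names every member, the listed genes at least 2-fold different (at most the 4 largest per direction, list and comparison, bounds only among the 2 largest), check genes, and the 3 genes most like each member that was measured on all arrays and at least 2-fold different. Neighbouring reductases, further cell markers, and dim genes named as such, were added after their values were seen. Gsta4 is also named, beyond the 4 largest of its list, and so is Aldh7a1, whose probes disagreed on background. A planned protein comparison was not run, and promoters were aligned instead.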

Additional observations from a re-analysis of the deposited data

How the results depend on the processing

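Of 97 member ratios recomputed under 9 alternatives, 77 moved by less than the spot error, 20 moved by more, and 0 of those at least 2-fold changed direction. Part of the 77 could not move. The 2 choices of dim-probe filter leave a ratio measured on both arrays as it was. The median over probes does the same for a gene with 1 probe. The deposited values are the same intensities plus constants. The tally therefore overstates how little the processing matters. Against 2 members higher in BIO cellulates than in myoblasts, 4 were higher with no filter on dim probes, and against 3 higher in neurogenic cellulates than in myoblasts, 5 were. The share of all genes higher was then 23.9% and 27.9%, against 11.2% and 12.1%. In neurogenic cellulates over myoblasts 2 were higher with normexp correction and 2 when only genes well above background on both arrays were kept, since the Akr1b8 bound was then under 2-fold or left out. Scaling to the array median made 1 member lower in each of the comparisons with myoblasts, Akr1b3, against 0. The share of all genes lower was then 28.9% in BIO and 38.9% in neurogenic cellulates, against 6.01% and 10%. In neurogenic over BIO cellulates, 1 member was higher with spike-in scaling and with the deposited table, Akr1b8, against 0. The share of all genes higher in that comparison was 7.77% and 4.39% with these, against 4.17%. There 0 were lower, against 1, with the 75th percentile over probes well above background, spike-in scaling, quantile normalization or normexp correction. That member was Akr1c18, with a log2 ratio of -1.01 as reported and of -0.86, -0.66, -0.82 and -0.87 under these settings, in the same order. Why the processing moved it was not tested. Over all genes, the number at least 2-fold higher and lower was 1442 and 771 in BIO cellulates over myoblasts (303 to 4385 and 495 to 3701 over the alternatives). It was 511 and 220 in neurogenic over BIO cellulates (201 to 1032 and 70 to 619), and 1559 and 1290 in neurogenic cellulates over myoblasts (528 to 5117 and 426 to 4996). Median scaling shifted the median of all genes by -0.66, -0.01 and -0.73, and spike-in scaling by 0.19, 0.34 and 0.41. The array median (24.4, 17.9 and 17.1 intensity units) lay near background. With 1 array a group, no replicate could be left out. No paired analysis was possible because each group has 1 array.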
